A study of Mus musculus with 9 samples.

Results

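The Snrpn-Ndn and Peg3 imprinted domains were followed in caudal epiblast-like cells (CEpiLCs), which are made from mouse embryonic stem cells and stand in for the posterior progenitors of the trunk. The 10 symbols examined were Snrpn, Snurf, Ndn, Magel2, Mkrn3, Peg12 and Ube3a of the first domain, and Peg3, Usp29 and Zim1 of the second. All 10 were found among the 24736 genes of the expression table. They were chosen by their place in these domains, with earlier genotype differences of the same data in view, so the genotype differences below describe the genes and are not independent support for a difference.

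An imprinted gene is transcribed mainly from 1 of its parental copies, and the choice follows from DNA methylation set in the germ line and kept in the embryo. In the Snrpn-Ndn domain, the region lost in Prader-Willi syndrome, most genes are read from the paternal copy, whereas Ube3a is silenced on the paternal copy in neurons by a long antisense transcript. In the Peg3 domain, Peg3 and Usp29 are paternally expressed and Zim1 maternally expressed. The reads were not assigned to parental copies, so each value below is the sum over both.

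Poly(A) RNA was sequenced from 9 cultures, 3 biological replicates per genotype, collected at 72 h (day 3). All received bFGF at 10 ng per ml and LGK974 at 5 uM, an inhibitor of WNT secretion, and then also CHIR99021, which activates WNT signalling by blocking GSK3. The genotypes were wild-type (WT), Cdx1/2/4-/- (CdxKO) and T/Bra-/- (T/BraKO). The study's methods give the WT line as the source of all embryonic stem cell lines used. It is an XY line that carries an inducible expression system (HM1 TetON). The methods do not describe how the mutant lines were made, and the paper cites an earlier study where it introduces the mutant cells. The labels name no second line for either mutation, so that the mutation and the cell line cannot be told apart.

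Libraries held between 25124344 and 34705361 counts, so the floor of 3 counts lay between 0.0864 and 0.119 CPM. In the check of the targeted genes, T averaged 12243 ± 2181 normalised counts (SD, n = 3) in WT and 2295 ± 563 in T/BraKO, and Cdx4 averaged 118 ± 52.2 in WT and 1.64 ± 0.338 in CdxKO. Cdx2 averaged 4199 ± 1740 in WT and 1031 ± 515 in CdxKO, and Cdx1 536 ± 90.7 and 272 ± 68.7. The lines differed outside the targeted genes although 1 parental line is stated for all, since the Y-linked gene Ddx3y had no count in any CdxKO library against a mean of 1727 in WT, and Hprt averaged 3938 in T/BraKO, 21.7 in WT and 22.4 in CdxKO. Of 11 caudal epiblast markers, none was at 0 in any library, but their levels moved with genotype. In CdxKO against WT 5 were lower (7 with a term for the replicate number) and none higher, the 3 Cdx genes together with Wnt3a (-1.42 ± 0.29 on the log2 scale) and Wnt8a (-0.77 ± 0.18). In T/BraKO against WT 2 were higher and 3 lower, T among them.

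The start regions of 4 genes are shown because they span the contrast between the parental classes. They are 300-base windows of RefSeq on GRCm38.p6, given on the gene's strand, from 250 bases before the start site to 50 after it, and capitals mark each CG, the pair that carries methylation. The first is the start that Snrpn and Snurf share (chr7:60005150-60005449, minus strand), the second belongs to Peg3 (chr7:6730370-6730669, minus strand), the third to Ube3a (chr7:59228500-59228799, plus strand) and the last to Zim1 (chr7:6696383-6696682, minus strand).
Snrpn and Snurf: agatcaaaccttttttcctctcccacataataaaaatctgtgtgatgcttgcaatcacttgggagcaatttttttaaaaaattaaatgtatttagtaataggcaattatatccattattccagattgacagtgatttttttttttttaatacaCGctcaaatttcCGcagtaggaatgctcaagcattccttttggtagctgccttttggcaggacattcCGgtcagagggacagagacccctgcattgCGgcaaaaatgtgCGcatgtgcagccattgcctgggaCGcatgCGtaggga
Peg3: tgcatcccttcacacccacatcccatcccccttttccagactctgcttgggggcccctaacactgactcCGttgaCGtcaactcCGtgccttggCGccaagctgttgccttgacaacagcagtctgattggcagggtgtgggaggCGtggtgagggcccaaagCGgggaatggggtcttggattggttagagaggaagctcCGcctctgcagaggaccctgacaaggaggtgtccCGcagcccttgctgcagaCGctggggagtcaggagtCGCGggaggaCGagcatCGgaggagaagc
Ube3a: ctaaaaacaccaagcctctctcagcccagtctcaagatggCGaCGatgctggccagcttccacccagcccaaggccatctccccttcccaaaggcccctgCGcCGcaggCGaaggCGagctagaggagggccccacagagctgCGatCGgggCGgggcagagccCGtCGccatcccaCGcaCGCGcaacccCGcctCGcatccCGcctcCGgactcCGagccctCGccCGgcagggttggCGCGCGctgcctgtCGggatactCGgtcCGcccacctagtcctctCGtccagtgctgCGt
Zim1: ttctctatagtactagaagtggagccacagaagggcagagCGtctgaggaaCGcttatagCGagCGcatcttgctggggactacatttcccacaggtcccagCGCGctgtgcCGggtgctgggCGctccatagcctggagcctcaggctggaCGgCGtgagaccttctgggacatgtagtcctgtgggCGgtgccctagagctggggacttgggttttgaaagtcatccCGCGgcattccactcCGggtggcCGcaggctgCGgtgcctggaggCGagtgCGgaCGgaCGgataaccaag

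The shared Snrpn and Snurf window held 7 CG pairs, the median of 32817 RefSeq windows of this length, with quartiles at 3 and 20. Ube3a held 29, Zim1 20, Usp29 17, Mkrn3 15, Peg3 13, Peg12 12, Ndn 11 and Magel2 10. Snrpn has 3 further starts upstream, with 2, 3 and 4. The letters TGCCGC, the core bound by the imprint-keeping zinc finger protein ZFP57 when methylated, were searched on both strands and matched the shared Snrpn and Snurf window and the Zim1 window, against 11.6% of all windows. The letters GCCATNTT, a core of the factor YY1, matched Mkrn3 and Ube3a, against 6.04%. The Peg3 and Usp29 windows overlapped by 263 bases, with start sites 164 bases apart on opposite strands, so this pair shares a start region. A match here is a description of letters in a window and nothing more.

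By GENCODE M21 on GRCm38, the 7 genes of the Snrpn-Ndn domain lie on chromosome 7 between 59228750 and 62464510, a span of 3235.8 kb. Ube3a is at 59228750 to 59311536, Snrpn at 59982495 to 60140219 with Snurf inside it at 59995449 to 60005049, Ndn at 62346569 to 62350262, Magel2 at 62377010 to 62381640, Mkrn3 at 62417593 to 62420139 and Peg12 at 62461871 to 62464510. The Peg3 domain is on the same chromosome between 6671269 and 6967219, a span of 296.0 kb, with Zim1 at 6671269 to 6696450, Peg3 at 6703892 to 6730431 and Usp29 at 6730578 to 6967219.

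All 10 genes had counts in every library, but their levels per transcript length were far apart. In WT, mean TPM, a transcript's share of the library scaled for length, was 90.2 ± 30.2 for Snrpn (SD, n = 3), 88.1 ± 30.1 for Snurf, 71.3 ± 11.1 for Ube3a, 57.3 ± 7.74 for Ndn and 57.2 ± 16.9 for Peg3. Neighbours in that order overlapped. Mkrn3 followed at 7.69 ± 1.2, Magel2 at 4.64 ± 2.16 and Peg12 at 4.34 ± 2.01, and neighbours in that order overlapped. Usp29 at 0.603 ± 0.0808 and Zim1 at 0.450 ± 0.259 were lowest and overlapped. In CdxKO the top of the order was Snrpn at 166 ± 70.3, Snurf at 163 ± 68.4, Peg3 at 95.3 ± 20.6, Ndn at 74.4 ± 11.6 and Ube3a at 70.2 ± 10.6.

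Snrpn and Snurf come from 1 RNA that encodes both proteins, and their rows are not separate measurements. Their expected counts were fractional in 100% of libraries, as happens when reads are divided between genes, whereas those of the other 8 genes were whole, and the ratio of Snrpn to Snurf stayed between 1.007 and 1.055. The sum of both rows, from 136 to 481 TPM over the libraries, does not depend on that division.

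The mutants belong to work on how epiblast progenitors respond to WNT signalling, and the first comparison set CdxKO against WT. In CdxKO the paternally expressed genes of both domains lay above WT in all 3 replicate numbers, by between 1.11-fold and 2.14-fold, whereas Ube3a lay within 0.93-fold to 1.02-fold and the maternally expressed Zim1 within 0.37-fold to 1.01-fold. Usp29 rose 0.95 ± 0.22 on the log2 scale (SE, DESeq2 adjusted p = 0.0055). Same-numbered libraries deviated together. With a term for the replicate number 7 of the 10 genes rose (6 of 9 without Snurf) and none fell. Beside them, 3.40% of all genes tested were called higher and 1.91% lower.

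**Figure D1:**
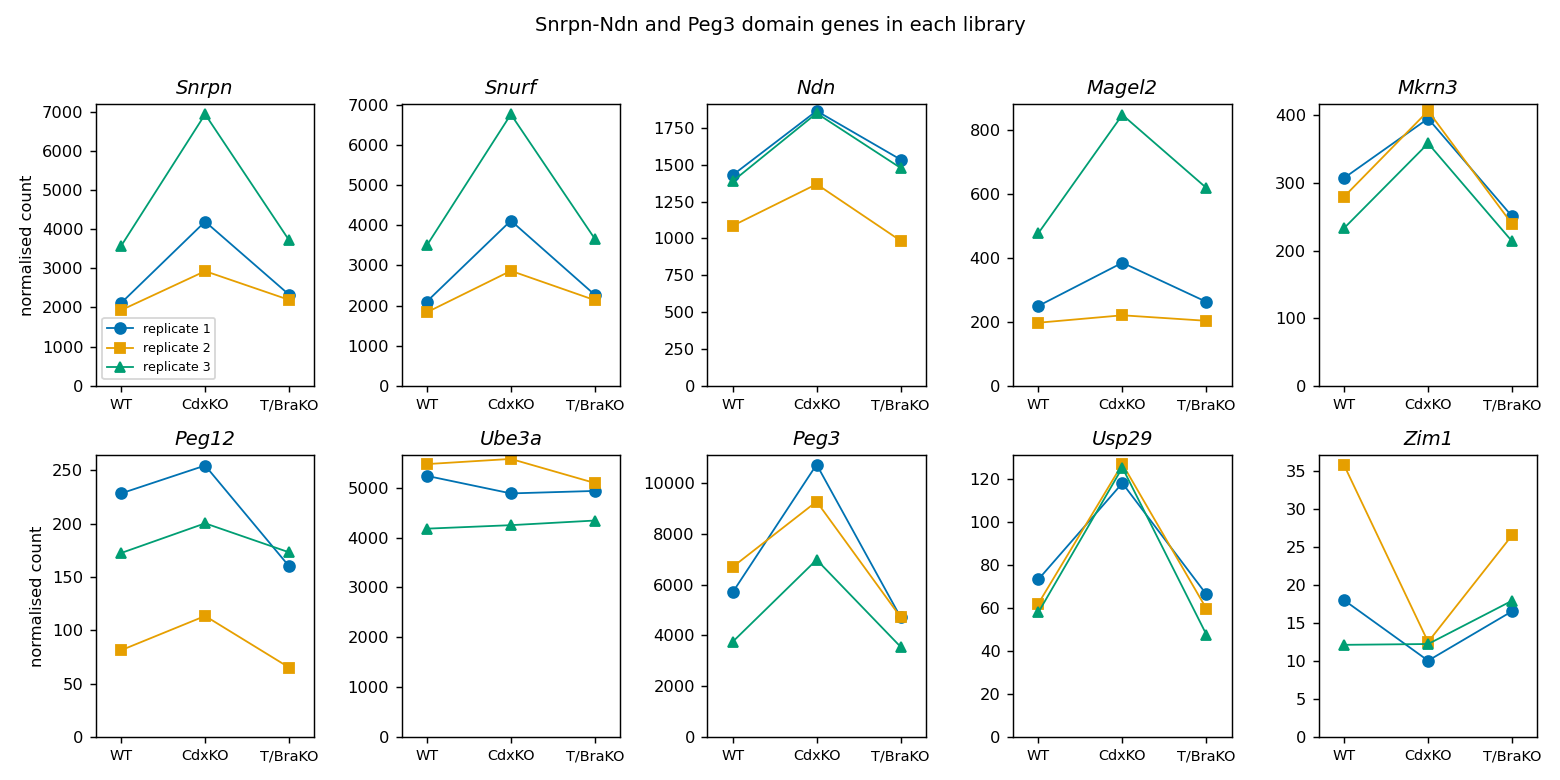
Normalised count (linear axes from 0) of each domain gene in the 9 libraries, with lines joining the libraries of 1 replicate number across WT, CdxKO and T/BraKO. The lines peak at CdxKO for Snrpn, Snurf, Ndn, Magel2, Mkrn3, Peg12, Peg3 and Usp29 in every replicate number, stay nearly level for Ube3a and dip for Zim1 in replicates 1 and 2.

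Snrpn encodes SmN, a core protein of spliceosomal particles. Its normalised counts in replicates 1, 2 and 3 were 2113, 1931 and 3569 for WT, 4191, 2927 and 6931 for CdxKO, and 2325, 2193 and 3713 for T/BraKO. The WT and CdxKO ranges overlapped, because WT replicate 3 exceeded CdxKO replicate 2, but within each replicate number CdxKO was higher, by 1.98, 1.52 and 1.94-fold. The log2 difference was 0.88 ± 0.34 without the replicate term (adjusted p = 0.460) and 0.85 ± 0.08 with it (DESeq2 adjusted p = 2.5e-21, or 5.9e-04 by edgeR with the same term). Snurf, which encodes a small protein from the upstream reading frame, gave 0.89 ± 0.34 and 0.86 ± 0.08.

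Ndn encodes necdin, a growth suppressor of the MAGE family found in postmitotic neurons. Its normalised counts were 1430, 1086 and 1388 in WT, 1866, 1369 and 1850 in CdxKO, and 1536, 985 and 1479 in T/BraKO. Replicate 2 was lowest in each genotype, so the groups overlapped, and CdxKO stood 1.26 to 1.33-fold above WT across the replicate numbers. The log2 difference of 0.38 ± 0.21 was not called without the replicate term (adjusted p = 1.00), and 0.38 ± 0.08 was called with it (adjusted p = 1.2e-04).

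Magel2, another MAGE gene whose protein works with a ubiquitin ligase in endosomal recycling, varied up to 3.83-fold between replicates of a genotype. It had 250, 197 and 477 normalised counts in WT, against 385, 221 and 847 in CdxKO and 263, 203 and 619 in T/BraKO. CdxKO replicate 2 lay below WT replicates 1 and 3, and the difference was 0.65 ± 0.67 without the replicate term and 0.56 ± 0.15 with it (adjusted p = 0.0048). Without CdxKO replicate 3 the difference without that term was -0.03.

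Mkrn3, which encodes a ubiquitin ligase that restrains the onset of puberty, had 307, 280 and 233 normalised counts in WT, against 395, 406 and 358 in CdxKO and 250, 239 and 213 in T/BraKO. Every CdxKO library exceeded every WT and T/BraKO library. Against WT the log2 difference was 0.50 ± 0.15 (adjusted p = 0.102) and, with the replicate term, 0.51 ± 0.14 (adjusted p = 0.0082).

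Peg12, a member of the Frat family of GSK3-binding proteins, had 228, 81.2 and 172 normalised counts in WT, against 255, 113 and 200 in CdxKO and 160, 65.0 and 173 in T/BraKO. The groups overlapped, and against WT the difference of 0.24 ± 0.46, or 0.28 ± 0.20 with the replicate term, was not called in either fit. Its 95% interval with the replicate term ran from -0.11 to 0.66.

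Ube3a encodes a ubiquitin ligase, the gene affected in Angelman syndrome. Its normalised counts were 5242, 5478 and 4181 in WT, 4889, 5582 and 4252 in CdxKO, and 4939, 5098 and 4345 in T/BraKO, and the ranges overlapped throughout. The log2 difference between CdxKO and WT was -0.02 ± 0.15, and its 95% interval with the replicate term ran from -0.13 to 0.10, which excludes the differences estimated for Snrpn and Peg3.

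Peg3, which encodes a zinc finger DNA-binding protein, had 5690, 6691 and 3741 normalised counts in WT, against 10728, 9270 and 6976 in CdxKO and 4712, 4713 and 3546 in T/BraKO. All CdxKO libraries lay above all others, and replicate 3 was lowest in each genotype. Against WT the log2 difference was 0.74 ± 0.23 (adjusted p = 0.154), and 0.76 ± 0.08 with the replicate term (adjusted p = 2.7e-18, or 0.0011 by edgeR).

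Usp29, a deubiquitinase gene that starts beside Peg3 on the other strand, had 73.1, 61.9 and 57.8 normalised counts in WT, against 118, 127 and 125 in CdxKO and 66.2, 59.5 and 47.5 in T/BraKO. The lowest CdxKO library held 1.60 times the WT library of the same replicate number. It was the only one of the 10 called against WT without the replicate term, and that call did not hold in edgeR (adjusted p = 0.261) or without WT replicate 2 (adjusted p = 0.123), WT replicate 3 (0.153) or CdxKO replicate 1 (0.0704), 2 (0.108) or 3 (0.108), where the difference stayed between 0.87 and 0.98.

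Zim1, a zinc finger gene, had 18.0, 35.8 and 12.1 normalised counts in WT, against 10.0, 12.5 and 12.2 in CdxKO and 16.5, 26.6 and 17.9 in T/BraKO. Every CdxKO library lay below every T/BraKO library, but WT replicate 3 lay among the CdxKO libraries. The log2 difference against WT, -0.92 ± 0.55, was not called, with a 95% interval from -2.0 to 0.16, at a level of few counts.

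Read over all genes, DESeq2 without the replicate term called 0.335% of 16737 genes as rising in CdxKO and 0.358% as falling, beside 1 (Usp29) and 0 of the 10. For the lower side, none of the 10 had an unadjusted p under 0.05, and edgeR called none. With the replicate term, 3.40% of genes were called higher and 1.91% lower, beside 7 and 0 of the 10. The 7 were Snrpn, Snurf, Ndn, Magel2, Mkrn3, Peg3 and Usp29. When the 3 libraries of 1 replicate number were left out, 3 of the 10 were called without replicate 1, 5 without replicate 2 and 3 without replicate 3. The CdxKO libraries lay wholly above WT for Mkrn3, Peg3 and Usp29, as they did for 5.26% of the genes tested. The median log2 difference of the 10 was 0.58, and that of all genes tested -0.002. Snurf is not a separate measurement from Snrpn. Without it, 6 of 9 genes were called higher with the replicate term, and the median without that term was 0.50.

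The second comparison set T/BraKO against WT. No gene of either domain was called in either direction without the replicate term, and the log2 differences ran from -0.31 for Peg3 to 0.23 for Magel2. None of the 10 had an unadjusted p under 0.05, edgeR called none, and 0.148% of all genes were called higher and 0.937% lower. With the replicate term Peg3 was lower, at -0.29 ± 0.08 (adjusted p = 0.0071, in edgeR 0.0536), with 0.83, 0.70 and 0.95 times the WT level in the 3 replicate numbers. No domain gene was higher with that term, also by unadjusted p, beside 4.83% of all genes called higher and 4.85% lower. The call of Peg3 was lost without replicate 1 (adjusted p = 0.157) or replicate 2 (0.251). For Snrpn the 95% interval with the replicate term ran from -0.04 to 0.29.

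The third comparison set the 2 mutant lines directly against each other. In CdxKO, Mkrn3, Peg3 and Usp29 exceeded their T/BraKO levels by 0.72 ± 0.15, 1.06 ± 0.23 and 1.10 ± 0.22 on the log2 scale, with DESeq2 adjusted p of 1.4e-04, 4.4e-04 and 7.4e-05. By edgeR, Mkrn3 (adjusted p = 0.0386) and Usp29 (0.0309) were called and Peg3 was not (0.0604). No domain gene was lower, none had an unadjusted p under 0.05 in that direction and edgeR called none. Over all genes 2.52% were called higher and 0.962% lower.

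With the replicate term 7 of the 10 were higher (6 of 9 without Snurf) and none lower. Over all genes 7.75% were higher and 6.90% lower with it. The 7 were Snrpn at 0.73 ± 0.08, Snurf at 0.73 ± 0.08, Ndn at 0.36 ± 0.08, Mkrn3, Peg12 at 0.54 ± 0.20, Peg3 and Usp29. Magel2 just missed the threshold (0.39 ± 0.14, adjusted p = 0.0518). Ube3a differed by 0.03 ± 0.06, with a 95% interval from -0.09 to 0.15. Mkrn3, Peg3 and Usp29 did not overlap between the mutants, as held for 8.17% of genes with CdxKO above, and Zim1 did not overlap in the other direction, as held for 6.92%. Both mutants are set against the same WT libraries in the comparisons above, so their differences from WT are not separate measurements.

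**Figure D2:**
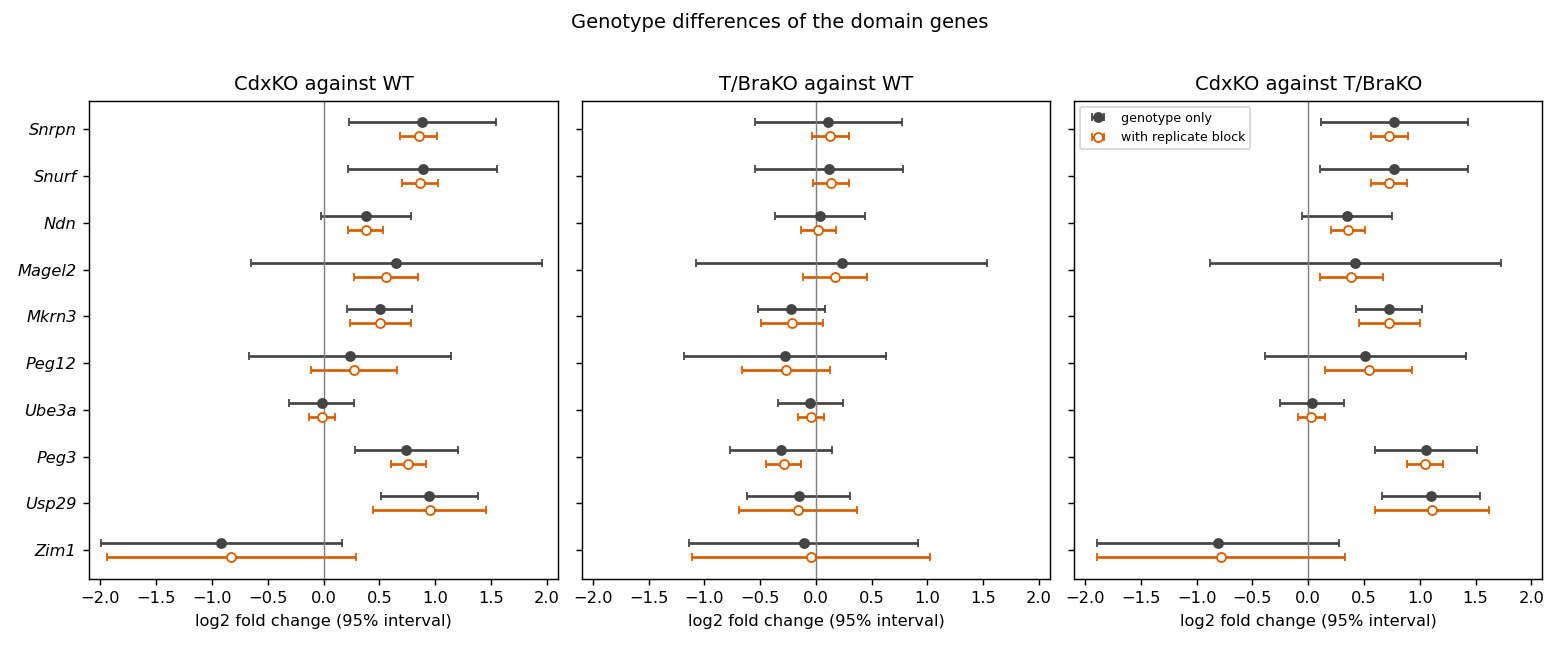
Log2 fold change with its 95% interval for each domain gene in the 3 comparisons, without (filled) and with (open) a term for the replicate number. The intervals for Snrpn narrow from an SE of 0.34 to 0.08 with the term while the estimates barely move, and Ube3a stays near 0 in all 3 panels.

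The replicate number itself moved several of these genes, in a way that divided the domain genes. Replicate 3 stood above replicate 2 over the genotypes for Magel2 (1.61 ± 0.14 on the log2 scale), Peg12 (1.10 ± 0.20), Snurf (0.98 ± 0.08), Snrpn (0.96 ± 0.08) and Ndn (0.46 ± 0.08). It stood below for Peg3 (-0.56 ± 0.08) and Ube3a (-0.34 ± 0.06). These 5 higher and 2 lower calls stand beside 21.8% and 20.1% of all genes. Mkrn3 (-0.20 ± 0.14), Usp29 (-0.14 ± 0.26) and Zim1 (-0.74 ± 0.55) were not called. In the Snrpn-Ndn domain Snrpn, Snurf, Ndn, Magel2 and Peg12 were lowest in replicate 2 in all 3 genotypes. Of these, Snrpn, Snurf and Magel2 were highest in replicate 3. Ube3a of the same domain was lowest in replicate 3 in all 3 genotypes, as was Peg3 of the other domain.

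Patterns over the 9 libraries were compared by the root mean square difference of log2 normalised counts after centring each gene. Apart from Snrpn and Snurf (0.017), the closest pairs were Mkrn3 and Usp29 (0.21), Mkrn3 and Peg3 (0.23) and Peg3 and Usp29 (0.26), so that Mkrn3 of the first domain sat with the Peg3 pair. Snrpn was closest to Magel2 (0.32). Outside the domains, among 12307 genes with a mean of at least 50 normalised counts, the nearest to Snrpn were Stc2 (0.19), Ptger4 (0.20) and Car2 (0.20). The nearest to Ndn were Ovca2 (0.055), Srebf1 (0.095) and Cpne5 (0.11), and those nearest to Peg3 were Nid1 (0.15), Slitrk2 (0.16) and Tspan9 (0.17). All points share the same 9 libraries, so this is a description.

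Between and around the domain genes, 47 other genes of the table lie in the spans widened by 1 Mb on each side, 8 at Snrpn-Ndn and 39 at Peg3. None was called between CdxKO and WT without the replicate term, with a median log2 difference of -0.04 over 23 tested. Of these, 1 had an unadjusted p under 0.05 and edgeR called none. Snhg14, the long noncoding RNA that runs from the Snrpn side towards Ube3a on the strand opposite to it, averaged 584 ± 66.4 normalised counts for WT, 874 ± 133 for CdxKO and 548 ± 88.6 for T/BraKO. Its lowest CdxKO library, at 751, exceeded the highest WT library, at 633, and the highest T/BraKO library, at 606. Its log2 difference was 0.58 ± 0.17 against WT (adjusted p = 0.108, with the replicate term 1.1e-04) and 0.67 ± 0.17 against T/BraKO (adjusted p = 0.0054), and edgeR called neither. The reads were strand-specific and, per the study's methods, counted by strand, so overlap of Snhg14 with Ube3a does not mix their counts.

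The other genes inside the spans were hardly transcribed. A330076H08Rik had at most 5 counts in a library, A230057D06Rik and Zim3 at most 1, and B230209E15Rik none. Among the Peg3 neighbours Epp13 was called with the replicate term in both mutants against WT, by 0.62 ± 0.19 in each, and not without it.

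**Figure D3:**
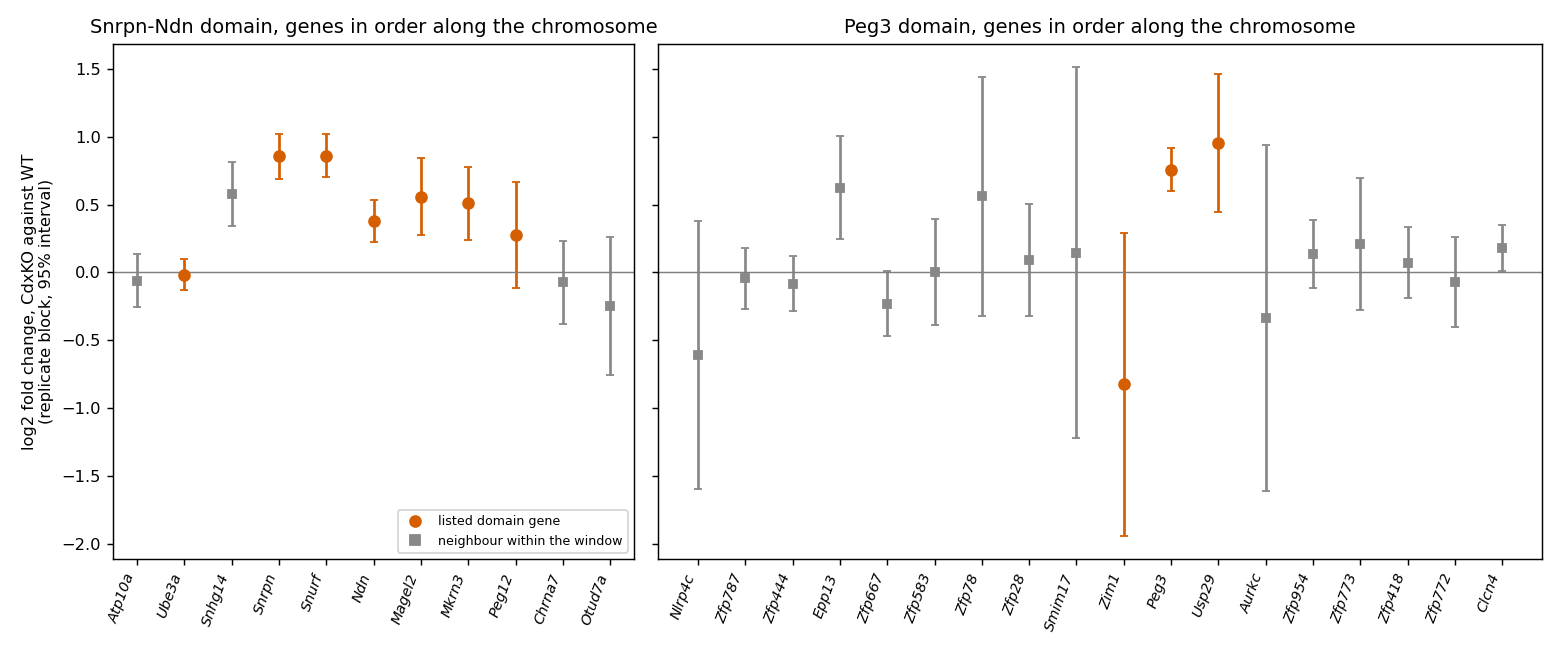
Log2 fold change of CdxKO against WT with the replicate term and its 95% interval, for the 10 domain genes (circles) and the neighbours with a mean of at least 10 normalised counts (squares, 4 at Snrpn-Ndn and 15 at Peg3), in their order along the chromosome. Snhg14, Snrpn, Snurf, Ndn, Magel2, Mkrn3 and Peg12 lie above 0 between Ube3a and Chrna7, and Peg3 and Usp29 stand apart from Zim1 beside them.

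Genes that keep or erase imprints were measured too, with 19 of 20 listed symbols in the table. None was called in any comparison by DESeq2 without the replicate term or by edgeR. By unadjusted p under 0.05, 2 were lower in CdxKO against WT, 2 in CdxKO against T/BraKO and none in T/BraKO against WT. Zfp57 averaged 1255 ± 149 normalised counts in WT, 1383 ± 236 in the Cdx mutant and 1329 ± 309 in the T mutant, and its partner Trim28 24474 ± 2643, 25083 ± 2814 and 26422 ± 3451. With the replicate term, calls appeared in each comparison. In CdxKO against WT 1 was lower, Zfp445, another imprint-keeping zinc finger gene, at -0.18 ± 0.06 (adjusted p = 0.0293), named here after its values were seen. In T/BraKO against WT, Dnmt3b, a de novo DNA methyltransferase gene, rose by 0.36 ± 0.05 and Tet2 was at -0.51 ± 0.14 (adjusted p = 3.1e-09 and 0.0065) with that term. In CdxKO against T/BraKO, 3 were lower with it, Dnmt3b (-0.43 ± 0.05), Uhrf1 (-0.20 ± 0.05) and Zfp445 (-0.17 ± 0.06). These too were named after their values were seen.

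Imprinted genes of other domains give the setting. The classes below are those listed, since the reads were not assigned to parental copies. Of 21 tested genes listed as paternally expressed, 5 rose and none fell in CdxKO against WT without the replicate term (2 and 0 by edgeR). The median was 0.44, beside -0.002 over all genes tested, of which 0.335% were called higher and 0.358% lower. Nnat (1.66 ± 0.22), Plagl1 (0.74 ± 0.14) and Impact (0.73 ± 0.11) led, and Mcts2 (0.72 ± 0.15) and Zdbf2 (0.44 ± 0.11), named after their values were seen, were the others. With the replicate term 10 of 19 tested were higher and 1 lower, Gnas (-0.17 ± 0.05), named after its values were seen. The Gnas row sums over the transcripts of the gene, so its place in this class rests on the list alone. Over all genes 3.40% were called higher and 1.91% lower with that term. Of 21 maternally expressed genes 1 was higher, H19 (3.96 ± 0.92), and 6 were lower (0 and 3 by edgeR), with a median of -0.03. Cdkn1c, a cell cycle inhibitor, averaged 1198 ± 293 normalised counts in WT and 33.5 ± 4.18 in CdxKO, and Kcnq1, of the same domain, averaged 14.8 ± 8.35 in WT and had at most 1 count in a CdxKO library. In T/BraKO against WT, 2 paternally expressed genes were higher and 1 lower, and no maternally expressed gene was called or had an unadjusted p under 0.05, with none called by edgeR. With the replicate term the T/BraKO calls were 7 higher and 4 lower among 18 tested paternally expressed genes. Among 18 tested maternally expressed genes they were 1 higher (H19, 1.22 ± 0.43) and 2 lower (Igf2r, -0.29 ± 0.07, and Copg2, -0.24 ± 0.07), all 3 named after their values were seen. Over all genes 0.148% were called higher and 0.937% lower in T/BraKO without that term, and 4.83% and 4.85% with it. Against T/BraKO, 6 paternally expressed genes were higher in CdxKO and none lower, and 5 maternally expressed genes were lower and none higher. The shares over all genes there were 2.52% higher and 0.962% lower.

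**Figure D4:**
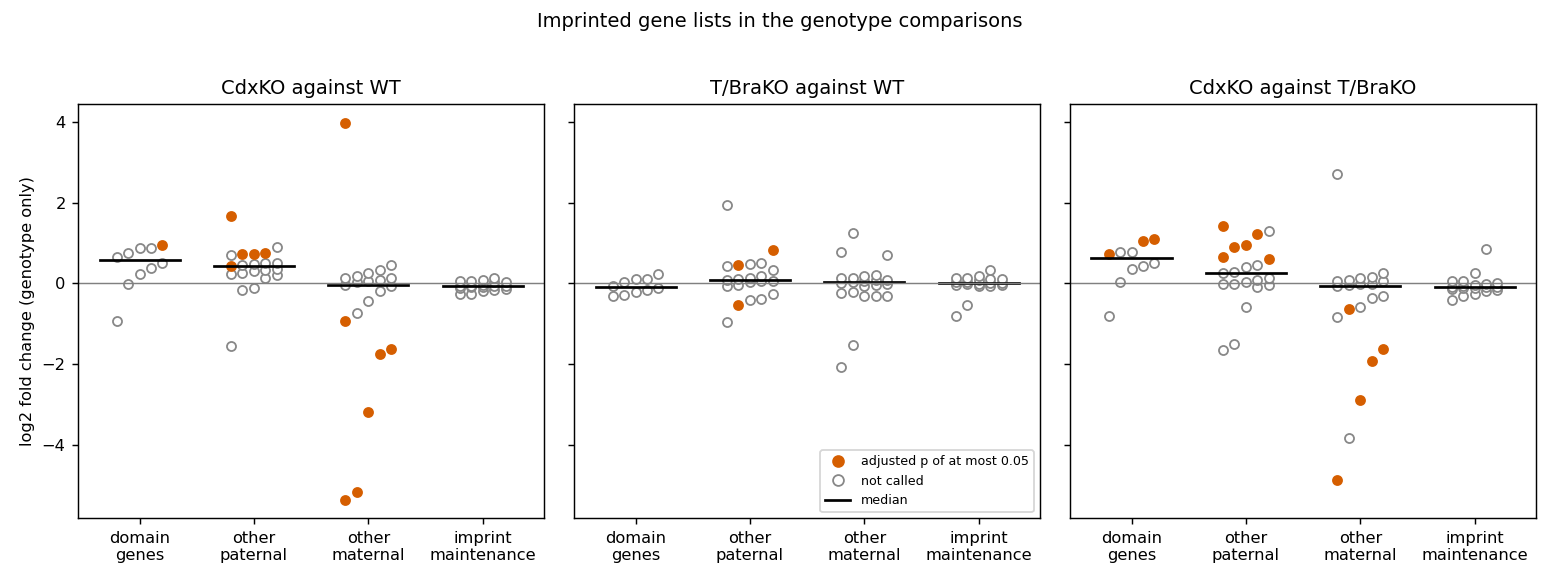
Log2 fold change without the replicate term of each tested gene of 4 lists in the 3 comparisons, with filled points for an adjusted p of at most 0.05 and a bar at the list's median. In CdxKO against WT the medians were 0.58 for the domain genes (0.50 without Snurf) and 0.44 for other genes listed as paternally expressed. They were -0.03 for other genes listed as maternally expressed and -0.07 for imprint maintenance genes.

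Several of the domain genes are known from neurons, so the markers of other cell types were read beside them. The summed TPM of 10 neuron markers was 262 to 309 in WT, 324 to 392 in CdxKO and 269 to 302 in T/BraKO. The CdxKO sums lay above the others, and 2 markers carried most of each sum, Stmn2 (mean TPM 165 in WT and 198 in CdxKO) and Nefl (48.0 and 67.0). Of the 10, 4 had a positive log2 difference against WT, and the median was -0.04, with Elavl4 at -0.47 ± 0.24 and Syt1 at -0.34 ± 0.34. None of the 10 was called against WT without the replicate term or by edgeR (1 higher and 1 lower by unadjusted p), and Stmn2 (0.26 ± 0.07) and Nefl (0.49 ± 0.11) were called higher with it. The sum of 13 fibroblast markers, which would mark feeder cells, was 88.0 to 122 in WT, 92.3 to 144 in CdxKO and 82.3 to 111 in T/BraKO. Against WT, none of the 13 was called in CdxKO without the replicate term or by edgeR (3 higher and 1 lower by unadjusted p). With it Col1a1 (0.94 ± 0.12) and Col1a2 (0.43 ± 0.14) were higher and Thy1 (-0.73 ± 0.17) lower. Col1a1 and Col1a2 thus rose as the paternally expressed domain genes did, and Thy1 did not. Without that term 8 of the 13 had a positive log2 difference, and the median was 0.13. In T/BraKO against WT 2 were lower, and 4 with that term. Between the mutants, 3 of them were higher and 1 lower in CdxKO (1 and 1 by edgeR, 4 and 1 with the replicate term). Of 6 paraxial mesoderm markers, 3 were higher in CdxKO than in T/BraKO and none lower (3 and 0 by edgeR). Their summed TPM was 48.06 to 87.12 in WT, 28.61 to 98.58 in CdxKO and 10.65 to 24.11 in T/BraKO. No neuron or fibroblast marker was at 0 in any library. The part of all these markers in the differences of the domain genes was not tested. In these bulk samples more cells of a type and more RNA per cell cannot be told apart.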

How the data were processed

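Poly(A) RNA of 9 cultures was read by the authors single-end and by strand, trimmed with cutadapt 1.16 and quantified with RSEM 1.3.0 and STAR 2.5.2a against RefSeq genes of mm10. They deposited RSEM expected counts, which need not be whole, and TPM values. TPM was used for levels only. Libraries were grouped by genotype and replicate number from their labels, and no per-sample column was left over.

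Expected counts were rounded. The DESeq2 1.42.0 Wald test in R 4.3.3 (two-sided, genotype only, all 9 libraries, Benjamini-Hochberg adjustment over all genes tested, adjusted p of at most 0.05) was the main test, since the study's methods name DESeq2, and edgeR 4.0.16 was an alternative. Normalised counts are counts divided by DESeq2 size factors, and ± is the SD for levels and the SE for log2 differences. Within-replicate folds add 1 to each normalised count. Over 12316 genes, deviations from group means correlated between same-numbered libraries of different genotypes at 0.532 to 0.814 in all 9 pairs (mean 0.703, against -0.340 over 18 other pairs), so the numbers, which come from the titles, were taken to pair the libraries and a replicate term was fitted too. These correlations are across genes. Since values were centred on group means, a positive mean in same-numbered pairs forces a negative mean in the others. The -0.340 is thus not separate support for the pairing. No 2 libraries of a genotype agreed within sampling noise. Floors cover counting error only. The scripts were tested on simulated counts.

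The members, lists and tests were chosen with earlier results of these data known. The text names all 10 domain genes, neighbours inside the spans or called in any comparison, imprint maintenance genes called without the replicate term together with Zfp57 and Trim28, up to 3 called genes per other imprinted list with the largest change, and the 3 genes nearest in pattern to Snrpn, Ndn and Peg3. Alternatives were TMM factors, a minimum of 10 counts in 3 libraries, the replicate term, edgeR, the 6 compared libraries alone, a stricter adjusted p of 0.01, a log2 change above 1 in size, Snrpn and Snurf summed, TPM ratios, and leaving out each library. Fits without each replicate number, and to 6 libraries with the replicate term, were added after the data were seen. Coordinates count from 1 on GRCm38, the assembly of mm10, and all 10 genes matched a RefSeq window. Protein sequences were not used here.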

Additional observations from a re-analysis of the deposited data

Results flagged for a closer look

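The direct comparison of the mutant lines flagged 3 genes, which DESeq2 called there without the replicate term. The genes were chosen with earlier genotype differences of these data in view, so this is a description and not independent support. Mkrn3 was higher in CdxKO than in T/BraKO by 0.72 on the log2 scale, Peg3 by 1.06 and Usp29 by 1.10, in 3 of 3 replicate numbers each. All 3 lay above WT in CdxKO and at 0.70 to 0.96 times the WT level in T/BraKO. Peg3 differed by 1.97 to 2.28-fold, Usp29 by 1.77 to 2.60-fold and Mkrn3 by 1.58 to 1.7-fold across replicate numbers. The cause was not tested.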

How the results depend on the processing

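With the replicate block, the count of domain genes called higher in CdxKO than in WT went from 1 to 7 (7 also in edgeR with the block and in the 6-library fit with the block), the count lower in T/BraKO than in WT from 0 to 1 (1 also in the 6-library fit with the block), and the count higher in CdxKO than in T/BraKO from 3 to 7 (8 in edgeR with the block and 6 in the 6-library fit with the block). The block changed no other call of these genes. Against WT, edgeR without the block and a log2 change above 1 each left 0 higher calls in CdxKO. Single libraries were left out without the block, and replicate numbers with it. Together these fits gave 0 to 5 higher calls for CdxKO against WT, 0 without WT replicate 3, CdxKO replicate 1 or CdxKO replicate 2. With the block, the 7 higher calls fell to 3 without replicate 1, 5 without replicate 2 and 3 without replicate 3. Both kinds of fit together gave 0 to 1 lower calls for T/BraKO against WT and 3 to 7 higher calls for CdxKO against T/BraKO. With all libraries and no block, Magel2 in CdxKO differed by 0.65 from WT and by 0.42 from T/BraKO. Its differences, and others, changed sign in those leave-out fits. In T/BraKO against WT they ran from -0.17 to 0.44 for Snrpn, -0.17 to 0.45 for Snurf, -0.0804 to 0.21 for Ndn, -0.41 to 0.69 for Magel2, -0.60 to 0.0641 for Peg12, -0.16 to 0.0253 for Ube3a and -0.41 to 0.45 for Zim1. In CdxKO against WT they ran from -0.0275 to 1.12 for Magel2, -0.0825 to 0.58 for Peg12 and -0.13 to 0.0762 for Ube3a, and against T/BraKO from -0.26 to 1.06 for Magel2 and -0.0669 to 0.13 for Ube3a. The cause was not tested. TMM factors moved the median over all genes by at most 0.0081 in size, and with them, the count minimum, the 6 libraries alone, Snrpn and Snurf summed or an adjusted p of at most 0.01, the counts of calls were the same. TPM has no test. Zim1 and Usp29 fell to smaller differences when 1 was added to TPM, by construction at their level. With 3 libraries a group and few counts, Zim1 had the largest SE of the 10 in the fit with the block.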
